A study of Mus musculus with 8 samples.

Results

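The NK receptors and their adaptors are a set of 10 genes, chosen by gene name from the 52636 rows of the deposited table. It holds 8 lectin-like receptors of natural killer (NK) cells, *Klrg1*, *Klrk1*, *Klrc1*, *Klrc2*, *Klrd1*, *Klrb1c*, *Klrb1b* and *Klrb1f*, and the signalling adaptors *Fcer1g* and *Tyrobp*. All 10 were in the table, and 7 reached the minimum for testing. The RNA came from splenic CD4+ T cells sorted into Foxp3+ Tregs and Foxp3- Tconvs, with 4 groups of 2 libraries. The mice were CD11c-Cd70tg;CD27+/- Foxp3 reporter mice (CD70Tg) and CD27+/- controls, aged 6 to 8 weeks, so that both genotypes carried a single working copy of CD27. In CD70Tg mice the CD11c promoter, active mainly in dendritic cells, drives CD70, the ligand of CD27. Before the sort, NK cells, B cells, macrophages, granulocytes, dendritic cells and CD8+ cells had been depleted with antibodies that included anti-CD49b. Per the study's methods anti-CD25 was added for Tconvs but not for Tregs, so that the subsets also differ in how they were purified, which cannot be told apart from the subset in any comparison of Tregs with Tconvs. Each library came from 200000 sorted cells, and nothing states whether a pair of libraries came from separate mice, so that p-values measure the spread between libraries, which may be technical. The control columns are headed KO in the table and the same samples are labelled WT, and they are called control here.

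The lectin-like receptors of NK cells are type II membrane proteins, most of them encoded side by side in the NK gene complex of mouse chromosome 6. Some carry an inhibitory motif in their tail that recruits phosphatases, and others lack a signalling tail and pair with small adaptors bearing an activating motif. Effector and memory T cells can take up several of these receptors, KLRG1 in particular, and invariant NKT cells carry NK1.1, the product of *Klrb1c*, in C57BL/6 mice. Among Tregs, KLRG1 marks differentiated cells found in tissues and at sites of inflammation.

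All values are reads per 20 M, as the table gives them, and 20 of these units are worth 1 read per M. The reads on genes behind a library, estimated from the value of a single read, were 6.90 to 33.14 M in Tconvs and 1.90 to 4.52 M in Tregs. The value of 3 reads was taken as the floor, and it lay between 1.8 and 8.6 in Tconv and between 13.1 and 31.3 in Treg libraries. The labelled subsets were checked with the summed Treg markers *Foxp3*, *Il2ra*, *Ikzf2* and *Ctla4* (*Il2ra* encodes CD25), which were at 54604 to 63193 in Tregs and 2695 to 3399 in Tconvs. In bulk RNA, fewer cells expressing a gene and less RNA per cell cannot be told apart. Differences are given on the log2 scale of value + 5, from limma fitted over 12816 genes, and a gene was called at an adjusted p under 0.05 with an absolute log2 fold change over 1.

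Of the 10 genes, 8 lie on chromosome 6 of mm10. *Klrg1* is apart from the rest at chr6:122270596-122282882. The Klrb1 genes follow, with *Klrb1c* at chr6:128778485-128789215, *Klrb1b* at chr6:128813706-128826331 and *Klrb1f* at chr6:129045901-129057464. The group that makes CD94 and the NKG2 proteins comes next, with *Klrd1* at chr6:129591782-129598775, *Klrk1* at chr6:129610323-129623864, *Klrc2* at chr6:129647496-129660689 and *Klrc1* at chr6:129666015-129678973. The adaptors lie elsewhere, *Fcer1g* at chr1:171229572-171234365 and *Tyrobp* at chr7:30413760-30417585. All 10 are annotated as protein coding in GENCODE M21.

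The receptor genes arose by duplication, and parts of some are too alike for short reads to tell apart. The coding sequences of *Klrc1* and *Klrc2* were identical at 83.1% of aligned bases, and those of *Klrb1c* and *Klrb1b* at 85.9%. Of all 50-base stretches in the transcripts of *Klrc1*, 36.6% also occur in *Klrc2*, so the split of reads between them is uncertain. The longest run of coding sequence that *Klrc1* and *Klrc2* share has 100 bases, in an exon at chr6:129674862-129674961 of *Klrc1* and at chr6:129656374-129656473 of *Klrc2* on the minus strand. It is shown because a read pair that falls wholly within it cannot be given to either gene.
Klrc1 and Klrc2, shared run: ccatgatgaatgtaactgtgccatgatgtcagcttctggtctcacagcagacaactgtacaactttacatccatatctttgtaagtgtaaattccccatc
*Klrg1*, *Klrk1*, *Klrd1*, *Klrb1f*, *Fcer1g* and *Tyrobp* share 0 of their 50-base stretches with another gene. *Klrb1c* overlaps the protein-coding gene model *Gm44511* on the same strand, which covers 13.9% of its exonic length and 26.9% of that of *Klrb1b*.

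**Figure D1:**
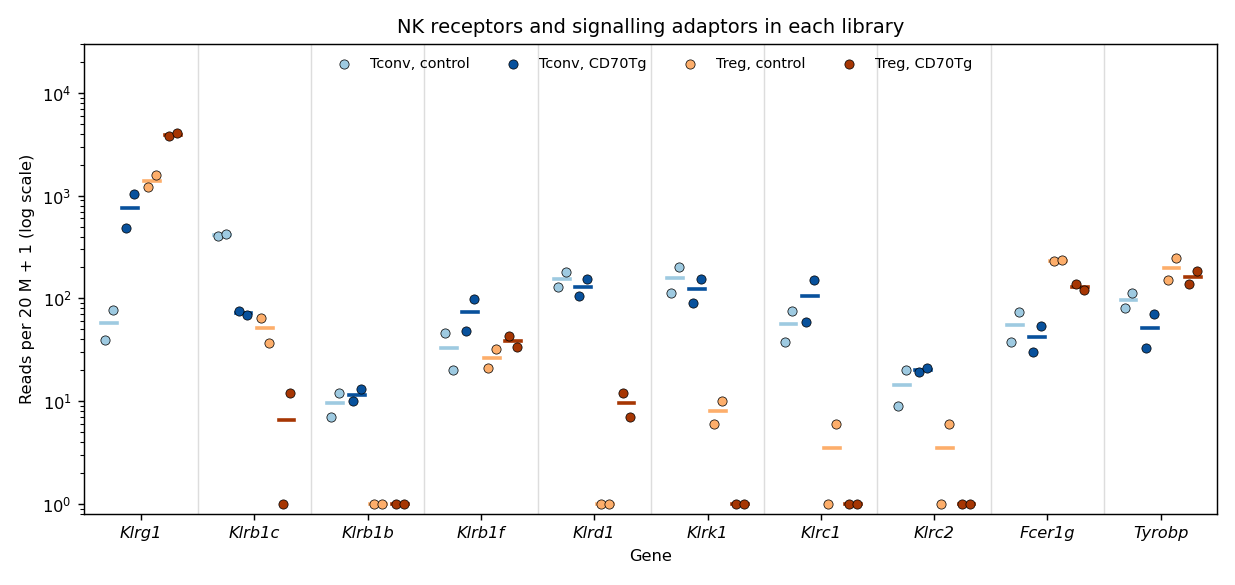
Reads per 20 M plus 1 on a log axis for the 10 genes in the 8 libraries. Points are libraries, bars the means of 2 libraries, and colours the 4 groups. Klrg1 rises from 38 and 76 in control Tconvs to 3783 and 4073 in CD70Tg Tregs, while Klrd1, Klrk1, Klrc1, Klrc2 and Klrb1b are at or near 0 in Tregs.

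Levels per length differed widely within the set. In control Tconvs the order per kb of exon was *Tyrobp* (143 reads per 20 M per kb), *Klrb1c* (139), *Klrd1* (121), *Fcer1g* (62.4), *Klrg1* (40.3), *Klrc1* (28.0), *Klrk1* (21.7), *Klrb1f* (15.8), *Klrb1b* (3.82) and *Klrc2* (2.32). On this scale the libraries of each gene overlapped with those of the next in the order, other than *Klrd1* with *Fcer1g* and *Klrb1f* with *Klrb1b*, so that most of the order is not settled. In CD70Tg Tconvs *Klrg1* came first, at 533 per kb, ahead of *Klrd1* at 100. In Tregs *Klrg1* led at 991 per kb in control and 2780 in CD70Tg mice, with *Tyrobp* (298 and 241) and *Fcer1g* (264 and 146) next. *Klrg1* was thus the receptor with most RNA in both Treg groups and in CD70Tg Tconvs, but not in control Tconvs.

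*Klrg1* encodes an inhibitory receptor for cadherins that accumulates on effector cells after repeated stimulation. In Tconvs its values were 38 and 76 in controls and 479 and 1027 in CD70Tg mice, a 13.2-fold ratio of means. In Tregs they were 1218 and 1585 in controls and 3783 and 4073 in CD70Tg mice, a 2.8-fold ratio. The 4 groups did not overlap, and control Tregs were above CD70Tg Tconvs. *Klrg1* rose by 3.58 ± 0.30 (SE) on the log2 scale in Tconvs (limma adjusted p = 4.7e-07). The increase in Tregs was 1.495 ± 0.298 (adjusted p = 0.0056). It was the single member called up in each subset, where 4.07% of all tested genes were called up in Tconvs and 2.53% in Tregs.

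The response of *Klrg1* was smaller in Tregs than in Tconvs, by 2.09 ± 0.42 on the log2 scale (adjusted p = 0.021). Among all genes, 0.733% were called with a smaller response in Tregs and 0.148% with a larger one. *Klrg1* was 24.6-fold higher in control Tregs than in control Tconvs (log2 difference 4.56, adjusted p = 5.7e-09), and 5.22-fold higher in CD70Tg Tregs than in CD70Tg Tconvs (2.48, adjusted p = 7.9e-06). These contrasts share libraries. The increase in Tregs was not called without the first control Treg library (1.31, adjusted p = 0.074), and the difference between subsets was not called without any of 4 libraries, as detailed with the alternatives. The second CD70Tg Tconv library, with 1027, is the deepest of all, and without it the increase in Tconvs was 3.04 (adjusted p = 1.2e-05).

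Markers of other cell types were read beside *Klrg1*, which can be carried by CD8 T cells and NK cells. *Cd8a* had 17 and 28 in control and 508 and 608 in CD70Tg Tconvs (4.38 ± 0.39, adjusted p = 9.8e-07), and 25 and 71 in control and 262 and 223 in CD70Tg Tregs (2.37 ± 0.39, adjusted p = 0.0012). *Cd8b1*, the other chain of the CD8 heterodimer of conventional CD8 T cells, had 703 and 653 in control and 1055 and 982 in CD70Tg Tconvs (0.58 ± 0.17, adjusted p = 0.038). In Tregs *Cd8b1* had 292 and 346 in controls and 398 and 408 in CD70Tg mice (0.34 ± 0.17, adjusted p = 0.26). The sum of these 2 markers was 681 and 720 in control and 1563 and 1590 in CD70Tg Tconvs, and 317 to 417 in control and 631 to 660 in CD70Tg Tregs, so that *Cd8a* rose with *Klrg1* in both subsets. *Cd4* stayed at 25914 to 31244 in Tconvs and 16100 to 17700 in Tregs. The sum of 7 markers of dendritic cells was 76 and 147 in control and 195 and 347 in CD70Tg Tconvs, and 109 and 156 in control and 410 and 378 in CD70Tg Tregs. Of the 2 tested, *Itgax* was called up in Tconvs (1.76 ± 0.43, adjusted p = 0.015, but 0.15 without the first control and 0.26 without the second CD70Tg Tconv library) and *Zbtb46* in Tregs (2.73 ± 0.47, adjusted p = 0.0017). The 7 neutrophil, basophil and mast cell markers summed to 5 to 18 in Tconvs and control Tregs and to 202 and 176 in CD70Tg Tregs. Most of that rise was in the neutrophil and monocyte genes *S100a9*, with 0 and 5 in control and 95 and 104 in CD70Tg Tregs (called, adjusted p = 0.0011), and *S100a8*, with 5 and 0 in control and 74 and 55 in CD70Tg Tregs. *Elane*, *Mcpt8* and *Fcer1a* were at or under the floor throughout. *S100a9* and *Zbtb46* reached the minimum only through CD70Tg Tregs, where they were high, so their calls are a description. *Itga2* (CD49b), the antigen of a depleting antibody, also rose with *Klrg1* in Tconvs, from 100 and 118 to 225 and 290 (adjusted p = 0.0031), and its values are given in full with the NK cell markers. The part of any of these cells in the level of *Klrg1* was not tested.

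The genes most like *Klrg1* over the 8 libraries, by Pearson's r of log2(value + 5), were *Gvin1* (0.997), *Gm4070* (0.995) and *Gbp7* (0.994). *Gvin1* and *Gbp7* belong to families of interferon-inducible GTPases. With 8 libraries in 4 groups, such r values mostly follow the group means.

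**Figure D2:**
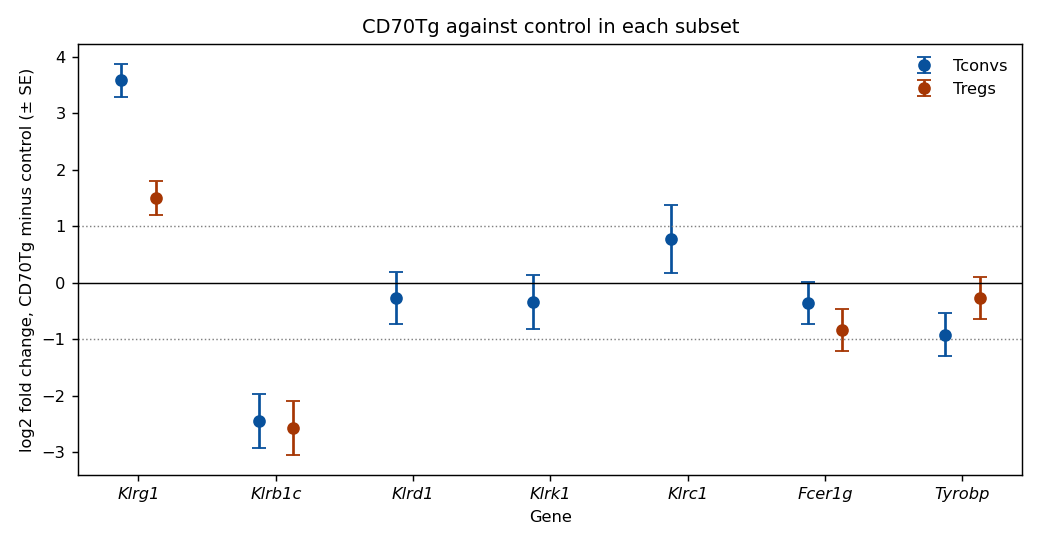
Log2 fold change of CD70Tg against control for the 7 tested genes, with the standard error of the limma fit, in Tconvs and in Tregs (2 libraries per group). Dotted lines mark the fold threshold. Klrg1 is above it and Klrb1c below it in both subsets, and no Treg value is drawn for Klrd1, Klrk1 and Klrc1, which were at or under the floor in both Treg groups.

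*Klrb1c* encodes NK1.1, an activating receptor that in T cells marks mainly NKT cells. Its values in Tconvs were 403 and 423 in controls and 75 and 68 in CD70Tg mice. In Tregs they were 64 and 36 in controls and 0 and 11 in CD70Tg mice. Both control libraries were above both CD70Tg libraries in each subset. *Klrb1c* fell by 2.45 ± 0.48 on the log2 scale in Tconvs (adjusted p = 0.0028), to 0.173 of the control mean. In Tregs it was at least 2.1-fold lower in CD70Tg mice, counted against the floor, and the test gave an adjusted p of 0.0035. The Treg values rest on 13 and 8 estimated reads in controls and 0 and 2 in CD70Tg mice. It was the single member called down in each subset, where 0.577% of all tested genes were called down in Tconvs and 1.08% in Tregs.

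The fitted difference between the falls was -0.12 ± 0.68 (adjusted p = 0.97), and nothing is read from it, since the CD70Tg Treg libraries were at or under the floor. *Klrb1c* was lower in Tregs than in Tconvs of control mice by 2.97 ± 0.48 on the log2 scale, a decrease that was called (adjusted p = 0.00011). In CD70Tg mice it was at least 3.0-fold lower in Tregs (adjusted p = 9.5e-05). The call in Tregs was lost without the first control Treg library (adjusted p = 0.053) and with limma-voom on the estimated reads (adjusted p = 0.11), and the call in Tconvs with a pseudocount of 1 (adjusted p = 0.066).

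The gene model *Gm44511*, named here after its values were seen, went the same way as *Klrb1c*. It had 110 and 134 in control and 32 and 17 in CD70Tg Tconvs, and 20 and 18 in control and 0 and 0 in CD70Tg Tregs. It was called down in both subsets, with an adjusted p of 0.0095 in Tconvs (log2 difference -2.15) and 0.0098 in Tregs. The call in Tconvs was lost without either control library or without the second CD70Tg library (adjusted p = 0.066, 0.14 and 0.15), and that in Tregs without the first control library (adjusted p = 0.065). The model has 1012 exonic bases, and it shares 13.9% of the 2961 exonic bases of *Klrb1c* and 26.9% of the 2228 of *Klrb1b*. It is thus built almost wholly from exons of these genes. Reads on shared exons cannot be told apart, so its fall does not count as that of a further gene.

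The other Klrb1 genes did not reach the minimum and were not tested. *Klrb1b*, an inhibitory receptor for the lectin encoded by *Clec2d*, had 6 and 11 in control and 9 and 12 in CD70Tg Tconvs and was at 0 in all 4 Treg libraries. *Klrb1f*, a receptor for the lectin encoded by *Clec2i*, had 45 and 19 in control and 47 and 98 in CD70Tg Tconvs. In Tregs *Klrb1f* had 20 and 31 in controls and 42 and 33 in CD70Tg mice, so that it alone of the receptors other than *Klrg1* was above the floor in every Treg library. No fall was seen in *Klrb1f*, where the CD70Tg libraries were above the controls in both subsets, though with 47 against 45 and 33 against 31 at the closest. Its Treg values rest on 4 and 7 estimated reads in controls and 4 and 6 in CD70Tg mice, so nothing is read from their order. With no minimum value, the difference of *Klrb1f* in Tconvs was 1.08 ± 0.53 (adjusted p = 0.57), and that in Tregs 0.49 ± 0.53 (adjusted p = 0.68).

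The markers of invariant NKT cells moved beside *Klrb1c* in Tconvs. *Zbtb16*, which encodes the factor PLZF that drives NKT development, had 119 and 151 in controls and 29 and 19 in CD70Tg mice (-2.28 ± 0.58, adjusted p = 0.018). It reached the minimum only through the control Tconvs, where it was high, so its call is a description. This call was lost without either control library or without the second CD70Tg Tconv library (adjusted p = 0.087, 0.18 and 0.19). *Il17rb*, the receptor for IL-25, had 36 and 72 in controls and 3 and 9 in CD70Tg mice (-2.41 ± 0.47, adjusted p = 0.0029, and 0.073 without the second control library). *Traj18*, the joining segment of their invariant receptor, had 196 and 185 in controls and 116 and 104 in CD70Tg mice (-0.77 ± 0.37, adjusted p = 0.28). Of the 5 markers 3 were tested and 2 were called down, where 0.577% of all tested genes were. The sum of all 5 was 367 and 436 in controls and 137 to 151 in CD70Tg Tconvs. *Trav11* and *Trav11d*, the variable segments, were at 8 to 15 in control and 0 to 3 in CD70Tg Tconvs, too low to test. The part of NKT cells in the fall of *Klrb1c* was not tested.

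In Tregs none of these markers was called between the genotypes. *Zbtb16* had 0 and 5 in control and 0 and 6 in CD70Tg Tregs, all at or under the floor, while *Klrb1c* was at 64 and 36 in the controls. The sum of the 5 markers was 166 and 335 in control and 158 and 116 in CD70Tg Tregs, mostly *Il17rb* and *Traj18*. *Il17rb* had 117 and 198 in control and 63 and 39 in CD70Tg Tregs, with both CD70Tg libraries below both controls as for *Klrb1c* (-1.53 ± 0.47, adjusted p = 0.062). Opposite to *Zbtb16*, *Il17rb* was higher in Tregs than in Tconvs of control mice (1.49, adjusted p = 0.017) and of CD70Tg mice (2.37, adjusted p = 0.00087). Its call in control mice was lost with no minimum value. *Trdc*, the constant segment of the gamma delta T cell receptor, fell beside *Klrb1c* in Tregs, from 117 and 189 to 42 and 77 (-1.31 ± 0.33, adjusted p = 0.024). This call was lost without the first CD70Tg or the second control Treg library, with no minimum value, and with limma-voom on the estimated reads (adjusted p = 0.34). The CD70Tg Treg values of *Trdc* rest on 4 and 14 estimated reads. In Tconvs *Trdc* had 208 and 247 in controls and 297 and 207 in CD70Tg mice. *Ncr1*, the receptor NKp46 that defines NK cells, was at 0 in 7 libraries and at 2 in the other. The only tested one of the 6 NK and ILC1 markers was *Itga2* (CD49b), which makes up most of their sum and is also found on activated T cells, and it was higher in CD70Tg mice, opposite to *Klrb1c*. *Itga2* had 100 and 118 in control and 225 and 290 in CD70Tg Tconvs (1.20 ± 0.24, adjusted p = 0.0031, and 0.053 without the second CD70Tg Tconv library), and 282 and 364 in control and 711 and 555 in CD70Tg Tregs (0.96 ± 0.24, adjusted p = 0.021, under the fold threshold). The sum of the 6 markers was 126 and 155 in control and 231 and 317 in CD70Tg Tconvs, and equal to *Itga2* in every Treg library. The rise of this sum was in *Itga2* alone, and the sum of the other 5 was not higher in CD70Tg Tconvs.

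**Figure D3:**
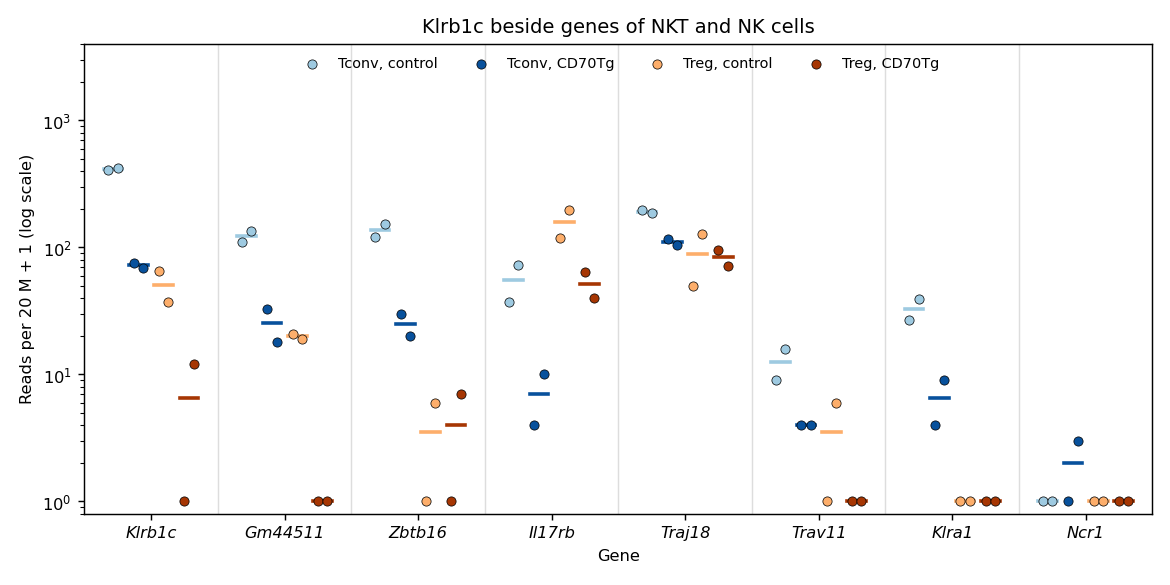
Reads per 20 M plus 1 on a log axis for Klrb1c, the overlapping gene model Gm44511, 4 markers of invariant NKT cells (Zbtb16, Il17rb, Traj18, Trav11) and the NK cell genes Klra1 and Ncr1. Points are libraries, bars the means of 2 libraries, and colours the 4 groups. In Tconvs Klrb1c, Gm44511, Zbtb16, Il17rb and Klra1 are lower in both CD70Tg libraries than in both controls, and Ncr1 is at or near 0 throughout.

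CD94, the product of *Klrd1*, pairs with NKG2A (*Klrc1*) into an inhibitory receptor or with NKG2C (*Klrc2*) into an activating one, and both read the peptide-binding molecule Qa-1. NKG2D, the product of *Klrk1*, is an activating receptor for ligands of stressed cells. *Klrd1* had 129 and 180 in control and 104 and 153 in CD70Tg Tconvs, a difference of -0.26 ± 0.46 (adjusted p = 0.84). *Klrk1* had 113 and 199 in control and 90 and 153 in CD70Tg Tconvs (-0.34 ± 0.49, adjusted p = 0.80). The libraries of the genotypes overlapped for both genes, and the errors leave room for changes of either sign.

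*Klrc1* went the other way in Tconvs, with 37 and 74 in controls and 58 and 151 in CD70Tg mice. Its difference of 0.78 ± 0.60 was not called (adjusted p = 0.56), and limma-voom on the estimated reads gave 1.35 (adjusted p = 0.043). *Klrc2* had 8 and 19 in control and 18 and 20 in CD70Tg Tconvs and was not tested. The libraries of both genes overlapped between genotypes, and the split of reads between them is uncertain as shown by the shared run.

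The CD94 and NKG2 genes were read in Tconvs and hardly in Tregs. In control Tregs *Klrk1* had 5 and 9, *Klrc1* 0 and 5, *Klrc2* 0 and 5 and *Klrd1* 0 in both libraries. In CD70Tg Tregs *Klrd1* had 11 and 6, which is 1 estimated read in each library, and *Klrk1*, *Klrc1* and *Klrc2* were at 0. No Treg library was above the floor for any of these genes. Control Tregs were at least 11.3-fold lower than control Tconvs for *Klrk1* (adjusted p = 1.4e-05), at least 11.2-fold for *Klrd1* (adjusted p = 3.1e-07) and at least 4.01-fold for *Klrc1* (adjusted p = 0.00069). The bounds in CD70Tg mice were 5.11-fold for *Klrk1*, 5.4-fold for *Klrd1* and 4.39-fold for *Klrc1*, with adjusted p values of 1.9e-06, 3.4e-05 and 3.6e-05. A change of these genes between the genotypes was not detectable in Tregs at this depth.

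*Klrk1*, *Klrd1*, *Klrc1* and *Klrb1c* reached the minimum for testing through their Tconv libraries, so that they could enter the test only as genes high in Tconvs, and their calls between the subsets are a description. With 4.43% of all tested genes called lower in Tregs in control and 4.94% in CD70Tg mice, nothing is read from the number of such members. *Klrd1*, *Klrk1* and *Klrc1* were followed most closely by genes of other kinds, *Klrd1* by *Cox8a* (r = 0.995), *Gm17509* and *Emb*, *Klrk1* by *Maml2* (r = 0.996), *Emg1* and *Dpy30*, and *Klrc1* by *Lck* (r = 0.991), *Trim12a* and *Rnf13*. *Klrb1c* was followed by *Gm13546* (r = 0.991), *Ppp2r5a* and *Ampd1*.

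Promoters were looked up because *Klrk1*, *Klrc1*, *Klrd1* and *Klrb1c* were low together in Tregs. RefSeq (GRCm38.p6) gave a start for 7 of the 10 genes, and the 250 bases before it were searched on both strands for the letters TGTGGT, the core read by Runx factors, and AGGTGT, the core read by T-box factors (read on the minus strand, the former is ACCACA and the latter spelled ACACCT). The Runx core was in 5 of the 9 windows of these genes, or in 4 of the 7 genes, where 14.0% of 32851 promoter windows hold it. The windows with the core belong to *Klrk1*, *Klrc1*, *Klrb1c* and, with 2 overlapping windows, *Klrc2*. Those of *Klrc2* and *Klrb1c* overlap an exon of their gene. The 2 windows of *Klrb1b* overlap as well, and several of the genes arose by duplication, so the windows are not independent and nothing is read from this share. The T-box core was in 0 of the 9 windows, where 11.8% of all windows hold it. The windows of *Klrk1* (chr6:129623865-129624114, minus strand) and *Klrc1* (chr6:129678974-129679223, minus strand) are shown because both genes were called lower in Tregs, with the Runx core in capitals, starting 129 and 87 bases before the start.
Klrk1: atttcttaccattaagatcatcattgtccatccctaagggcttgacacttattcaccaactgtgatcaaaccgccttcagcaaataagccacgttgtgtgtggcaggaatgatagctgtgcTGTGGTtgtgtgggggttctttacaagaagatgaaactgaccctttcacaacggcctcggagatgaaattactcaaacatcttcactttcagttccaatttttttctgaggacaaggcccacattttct
Klrc1: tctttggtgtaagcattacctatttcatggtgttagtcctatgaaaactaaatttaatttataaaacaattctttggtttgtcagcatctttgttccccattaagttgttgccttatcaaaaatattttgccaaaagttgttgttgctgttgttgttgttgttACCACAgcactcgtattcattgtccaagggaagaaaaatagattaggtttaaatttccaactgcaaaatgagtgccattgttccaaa
A match describes the letters of a window and is not a binding site. *Klrg1*, *Klrd1* and *Tyrobp* had no entry.

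*Fcer1g* and *Tyrobp* encode FcRγ and DAP12, adaptors with an activating motif that signal for Fc receptors and many NK and myeloid receptors. *Fcer1g* had 37 and 72 in control and 29 and 53 in CD70Tg Tconvs, and 229 and 233 in control and 136 and 120 in CD70Tg Tregs. *Tyrobp* had 80 and 111 in control and 32 and 70 in CD70Tg Tconvs, and 151 and 246 in control and 136 and 185 in CD70Tg Tregs. The groups did not overlap for *Fcer1g* in Tregs and for *Tyrobp* in Tconvs, with the CD70Tg libraries the lower ones. None of these differences was called. The difference of *Fcer1g* was -0.83 ± 0.37 in Tregs (adjusted p = 0.20), against -0.36 ± 0.37 for Tconvs (adjusted p = 0.70). For *Tyrobp* the Treg difference was -0.27 ± 0.38 (adjusted p = 0.74) and that of Tconvs -0.92 ± 0.38 (adjusted p = 0.18).

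Both adaptors were higher in Tregs than in Tconvs. *Fcer1g* was 4.24-fold higher in control Tregs (log2 difference 2.05, adjusted p = 0.0003) and 3.12-fold higher in CD70Tg Tregs (1.58, adjusted p = 0.0029). *Tyrobp* was 3.15-fold higher in CD70Tg Tregs (1.64, adjusted p = 0.0025), and its difference of 0.995 in control mice (adjusted p = 0.04) was just under the fold threshold. With *Klrg1*, the members called higher in Tregs were thus 2 in control and 3 in CD70Tg mice, where 14.7% and 12.3% of all tested genes were. *Fcer1g* reached the minimum in 1 Tconv library alone and was thus tested through its Treg libraries, so that its calls between the subsets are a description too and nothing is read from these counts.

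Markers of macrophages and of B cells moved with the adaptors between the subsets. The sum of the 8 markers *Lyz2*, *Csf1r*, *Cd14*, *Itgam*, *Cd68*, *Adgre1*, *Fcgr1* and *Mpeg1* was 1695 and 1812 in control and 1340 and 1782 in CD70Tg Tconvs, and 3445 and 3639 in control and 4162 and 3881 in CD70Tg Tregs. None of the 8 was at 0 in every library, and of the 6 tested, 4 were called higher in control Tregs than in control Tconvs and 5 in CD70Tg mice. Of all tested genes, 14.7% and 12.3% were called higher in Tregs in these comparisons. *Csf1r*, the receptor that keeps macrophages alive, had 449 and 417 in control and 309 and 380 in CD70Tg Tconvs, and 1500 and 1205 in control and 930 and 762 in CD70Tg Tregs (-0.67 ± 0.18 between Treg groups, adjusted p = 0.029, under the fold threshold). Of the other tested macrophage markers, *Itgam*, *Lyz2* and *Adgre1* differed in direction between the subsets, while *Cd68* and *Mpeg1* were higher in CD70Tg mice in both. Neither *Adgre1* nor *Mpeg1* was called between the genotypes. *Itgam* had 146 and 198 in control and 377 and 381 in CD70Tg Tregs (1.13 ± 0.26, adjusted p = 0.013, but 0.19 without the first control and 0.064 and 0.057 without the first or second CD70Tg Treg library), but 178 and 166 in control and 93 and 80 in CD70Tg Tconvs (-0.96 ± 0.26, adjusted p = 0.027, under the fold threshold). The difference between these responses of *Itgam* was called (2.09, adjusted p = 0.0087). That call was lost without the first control Treg library and with no minimum value (adjusted p = 0.19). *Lyz2* had a difference of -0.61 (adjusted p = 0.057) for Tconvs against 0.59 (adjusted p = 0.072) for Tregs, and its call between these responses (1.20, adjusted p = 0.041) was lost without any 1 of 5 libraries (adjusted p of 0.072 to 0.23). *Cd68* had 79 and 51 in control and 245 and 306 in CD70Tg Tconvs (2.02 ± 0.28, adjusted p = 0.00011). In Tregs *Cd68* had 224 and 211 in controls and 262 and 348 in CD70Tg mice (0.47 ± 0.28, adjusted p = 0.36). The gene most like *Fcer1g* was *C1qa*, a complement component made by macrophages (r = 0.994), followed by *Cfp* and *Bptf*, and the gene most like *Tyrobp* was *Ly86*, also of myeloid and B cells (r = 0.995), followed by *Eps8l1* and *Sash1*. *Cd79b*, a signalling chain of the B cell receptor, had 49 and 67 in control and 35 and 52 in CD70Tg Tconvs, and 165 and 250 in control and 272 and 256 in CD70Tg Tregs. Of the 2 B cell markers tested, *Cd79b* was called higher in Tregs of both genotypes (1.74, adjusted p = 0.00044 in control mice) and *Cd79a* in those of CD70Tg mice (1.92, adjusted p = 0.00084). *Cd79a* reached the minimum through Treg libraries alone, so its call is a description. The part of macrophage or B cell RNA in the levels of the adaptors was not tested.

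**Figure D4:**
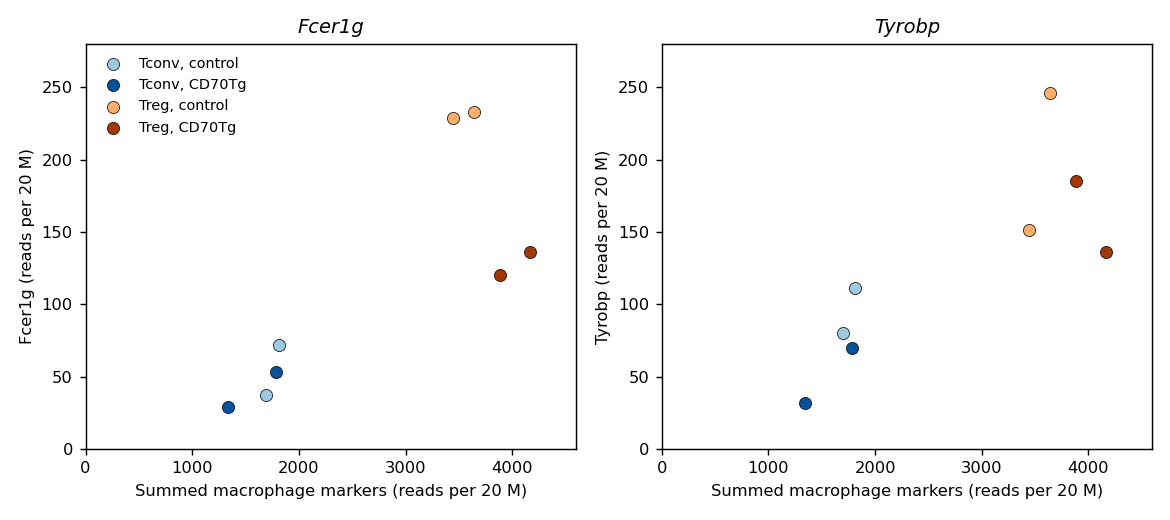
Fcer1g (left) and Tyrobp (right) against the sum of 8 macrophage markers, all in reads per 20 M, with 1 point per library and colours for the 4 groups. Both the adaptors and the markers are higher in the 4 Treg than in the 4 Tconv libraries, and within Tregs Fcer1g is lower in the CD70Tg libraries (136 and 120) than in the controls (229 and 233) while the sum of markers is higher.

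The further receptor genes of the NK gene complex were close to silent. Of 19 such genes, 18 were in the table and 0 reached the minimum. Their sum was 97 and 155 in control and 24 and 81 in CD70Tg Tconvs, and 11 to 30 in Tregs. The highest in control Tconvs was *Klra1* (Ly49A), an inhibitory receptor for class I molecules, with 26 and 38 there, 3 and 8 in CD70Tg Tconvs and 0 in all Treg libraries.

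Of 10 NK receptors outside the complex, 8 were in the table and 6 tested. In Tregs 2 rose and 1 fell, where 2.53% of all tested genes were called up and 1.08% down. Their median log2 fold change in Tregs was -0.01 against -0.05 over all tested genes. In Tconvs 1 was called up and 0 down, where 4.07% and 0.577% of all tested genes were. *Lilrb4a*, an inhibitory receptor of the immunoglobulin family, had 25 and 13 in control and 294 and 803 in CD70Tg Tconvs, and 204 and 193 in control and 1599 in both CD70Tg Treg libraries. It rose by 4.403 ± 0.357 on the log2 scale in Tconvs (adjusted p = 3.5e-07) and by 2.98 ± 0.36 in Tregs (adjusted p = 7.3e-05), and like *Klrg1* it was higher in Tregs in each genotype. *Crtam*, an adhesion receptor of cytotoxic cells, rose in Tregs from 25 and 9 to 74 and 71 (1.92 ± 0.35, adjusted p = 0.0033), and stayed at 264 to 339 in Tconvs. Its Treg values rest on 5 and 2 estimated reads in controls and 7 and 13 in CD70Tg mice, and the call was lost with limma-voom (adjusted p = 0.13). *Cd160*, a receptor shared by NK and memory T cells, fell in Tregs from 345 and 303 to 84 and 44 (-2.31 ± 0.32, adjusted p = 0.00023), and had 383 and 524 in control and 234 and 415 in CD70Tg Tconvs (adjusted p = 0.43). The CD70Tg Treg values of *Cd160* rest on 8 estimated reads each, and its call was lost with limma-voom (adjusted p = 0.07). The difference between the subsets was not called for *Crtam* (adjusted p = 0.11) or *Cd160* (adjusted p = 0.074). *Cd226*, an activating receptor, was called only between the subsets of CD70Tg mice, lower in Tregs (-1.19, adjusted p = 0.00029), and was under the fold threshold without the second CD70Tg Tconv library (-0.78).

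Further adaptors and kinases, 9 in the table and 7 tested, had 0 called in Tregs and 1 in Tconvs, with median log2 fold changes of -0.08 and 0.07. The call in Tconvs was up, where 4.07% of all tested genes were called up. *Lat2*, a linker of B and myeloid cells, rose in Tconvs from 12 and 9 to 61 in both CD70Tg libraries (2.10 ± 0.40, adjusted p = 0.0024). *Hcst*, which encodes DAP10, the adaptor of NKG2D, ends 127 bases from *Tyrobp* on the opposite strand. It had 2691 and 2838 in control and 2392 and 2586 in CD70Tg Tconvs, and 957 to 1160 in Tregs. *Hcst* was thus lower in Tregs (-1.25, adjusted p = 7.6e-07 in control mice) where its neighbour was higher. *Syk*, a kinase that binds the motif of both adaptors, was higher in Tregs than in Tconvs in control (1.58, adjusted p = 0.014) and CD70Tg mice (2.86, adjusted p = 0.00021), and the call in control mice was lost without the first control Tconv or either control Treg library (adjusted p of 0.052 to 0.056). Of the 3 phosphatases bound by inhibitory receptors, *Ptpn6*, *Ptpn11* and *Inpp5d*, all tested, 0 were called in any comparison.

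The ligands read by these receptors were also measured, 12 of 16 in the table and 5 of them tested. *H2-T23*, the Qa-1 gene and ligand of CD94 with NKG2A, had 11722 and 11432 in control and 15720 and 17207 in CD70Tg Tconvs, and 11947 and 11524 in control and 16634 and 16638 in CD70Tg Tregs. It was higher in all CD70Tg libraries, with differences of 0.51 ± 0.11 for Tconvs (adjusted p = 0.0079) and 0.50 ± 0.11 for Tregs (adjusted p = 0.012), under the fold threshold. *Ulbp1*, a ligand of NKG2D, rose in Tconvs from 88 and 107 to 196 and 264 (1.19 ± 0.26, adjusted p = 0.006), and had 240 to 333 in Tregs. The call was lost without the first control or the second CD70Tg Tconv library (adjusted p = 0.06 and 0.092). *Clec2i*, the ligand of the *Klrb1f* receptor, was higher in control Tregs than in control Tconvs (1.25, adjusted p = 3.1e-05). *Cdh1*, E-cadherin and the main ligand of KLRG1, had 39 and 34 in control and 61 and 84 in CD70Tg Tconvs, and 10 to 39 in Tregs, with no call.

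All 6 T-box and partner factors were tested, with median log2 fold changes of 1.26 in Tconvs and 0.89 in Tregs, against 0.01 and -0.05 over all genes. *Eomes*, which drives NK and cytotoxic genes, rose from 352 and 258 to 2807 and 3386 in Tconvs (3.33 ± 0.19, adjusted p = 4.2e-09) and from 93 and 75 to 1547 and 1458 in Tregs (4.09 ± 0.19, adjusted p = 2.2e-09). *Prdm1* (Blimp-1) was called in Tconvs (2.05, adjusted p = 1.5e-07), and *Tbx21* (T-bet, 1.28, adjusted p = 0.019) and *Id2* (1.12, adjusted p = 0.00017) in Tregs. In the other subset the differences were 0.67 for *Prdm1* in Tregs (adjusted p = 0.015), and 0.97 for *Tbx21* (adjusted p = 0.066) and 0.95 for *Id2* (adjusted p = 0.00039) in Tconvs, all under the fold threshold. The responses differed between the subsets for *Prdm1* (-1.38, adjusted p = 0.0044), and no such difference was called for *Tbx21* (adjusted p = 0.87) or *Id2* (adjusted p = 0.84). The call of *Tbx21* was lost without any 1 of the 4 Treg libraries, with no minimum value, and with limma-voom on the estimated reads (adjusted p = 0.43). *Eomes*, *Tbx21* and *Id2* were lower, and *Prdm1* and *Klrg1* higher, in control Tregs than in control Tconvs.

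Within 20 kb of the 10 genes lie 23 other annotated genes, of which 8 were tested. Besides *Gm44511*, those called between the genotypes were *Gm6637* and *Aplp1* in Tconvs. *Gm6637*, a processed pseudogene 12782 bases from *Klrg1* and named after its values were seen, had 43 and 59 in control and 139 and 366 in CD70Tg Tconvs (2.06, adjusted p = 0.00051), and 559 and 719 in control and 889 and 1055 in CD70Tg Tregs (0.61, adjusted p = 0.31). *Aplp1*, 17397 bases from *Tyrobp*, rose in Tconvs (1.36, adjusted p = 0.003).

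Within groups, the Tconv libraries differed in a way that touches most of these genes. In controls the second library was higher than the first for 9 of the 10 genes, where it was higher for 31.2% of the tested genes. In CD70Tg mice the second library was again higher for 9 of the 10, and for 73.9% of the tested genes. Leaving out a library changed no call of a member in Tconvs.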

How the data were processed

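RNA of 8 libraries was measured, with groups taken from the column labels. Per the labels and the study's methods, the authors used Trimmomatic 0.36, STAR 2.5.3 (mm10) and HTSeq 0.9.1, whose strand setting is not given in the sources used here. The deposited values (unit score) are read counts that the authors scaled to a total of 20 M and rounded up, and the totals lie between 19963628 and 20164600. The authors' DESeq2 needs counts, which these values are not. The worth of 1 read was estimated in each library from its low values, and folds against a group at or under 3 reads are lower bounds.

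Rows named from clones (4131) were dropped because their low values are off the step of their library. Where a name stood on several rows (97 names), the row with the largest total kept it. The minimum was a value of 60 in 2 libraries, which 12816 genes reached. The fit was limma 3.58.1 in R 4.3.3 on log2(value + 5), with a trend, 1 coefficient per group and Benjamini-Hochberg adjustment within each contrast, and it was tested on simulated data. Positions and coding sequences came from GENCODE M21, promoters from RefSeq GRCm38.p6. By rule, the text names the 10 members, genes of the pathway lists called in any contrast, and the 3 genes most correlated with each tested member, with neighbours by counts. *Gm44511*, *Gm6637*, *Aplp1*, *Klra1*, *H2-T23*, *Cdh1* and those cell type markers given with values were picked after values were seen. The members and lists were chosen with earlier results of these data known. Alternatives were pseudocounts of 1 and 20, no minimum, a mean of 60 or more, median-of-ratios factors, limma-voom on estimated reads, no fold threshold, fits to the 4 libraries of a comparison, and omission of each library.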

Additional observations from a re-analysis of the deposited data

Results flagged for a closer look

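The response of *Klrg1* differed between the subsets: the Treg response minus the Tconv response was -2.09 on the log2 scale (limma adjusted p = 0.021). All 4 CD70Tg libraries were above the controls of their subset, at 3783 and 4073 against 1218 and 1585 in Tregs and at 479 and 1027 against 38 and 76 in Tconvs. Over the alternatives the difference ranged from -2.63 to -1.54 and its adjusted p from 0.0011 to 0.37.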

How the results depend on the processing

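*Klrg1* kept its direction in both subsets under all 15 alternatives, with adjusted p values of 1.9e-08 to 0.0087 in Tconvs, and of 3.6e-07 to 0.11 in Tregs. *Klrb1c* kept its direction in both, with 4.2e-06 to 0.10 in Tconvs and 0.00048 to 0.11 in Tregs. With no minimum value, 26467 genes were tested and 0 members were called up in Tregs, 0 down in Tregs, 0 down in Tconvs and 0 for the difference between the subsets. A pseudocount of 1 gave 2 called up and 2 called down in Tregs (adding *Klrd1* and *Klrk1*, both at or under the floor) and 0 down in Tconvs. limma-voom gave 0 called down in Tregs, 2 called up in Tconvs (adding *Klrc1*) and 0 for the difference, and median-of-ratios factors 0 for the difference. Leaving out 1 library gave 0 to 1 called up and 0 to 1 called down in Tregs, with 0 in both without the first control Treg library, and 0 to 1 for the difference, with 0 without the second CD70Tg Tconv, second control Treg or either CD70Tg Treg library (log2 -1.54, -1.90, -2.03 and -2.14). The cause of these changes was not tested.

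The difference of *Klrb1c* between the subsets (-0.12, with CD70Tg Tregs at the floor) changed sign with a pseudocount of 20 (0.78) and with limma-voom (0.029), and ranged from -0.96 to 0.72 over left-out libraries. Other values with no call changed sign when a library was left out: *Tyrobp* in Tregs (-0.62 to 0.069), and in Tconvs *Klrk1* (-0.74 to 0.054), *Klrd1* (-0.53 to 0.005) and *Fcer1g* (-0.79 to 0.08). Of 90 calls of list genes that are no members, 55 were kept under every alternative that tested the gene (some were not tested with a mean of at least 60), 35 were lost under at least 1, and 0 were reversed. Calls of members between the subsets were kept under every alternative that tested them (with a mean of at least 60, *Klrc1* was not tested), and *Tyrobp* in control mice was also called with a pseudocount of 1, limma-voom, no fold threshold or without the first control Treg library. With no minimum, *Klrb1b* in both genotypes (adjusted p = 0.021 and 0.014) and *Klrc2* in CD70Tg mice (adjusted p = 0.018) were also called lower in Tregs, where both were under the floor. No paired analysis was possible because the columns of the table carry no replicate number that matches the titles. Depth limits the Treg libraries, in which values of under 13.1 to 31.3 rest on fewer than 3 reads.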
